A study of Mus musculus with 16 samples.

Results

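Sparc and 9 other genes for non-collagen proteins of the extracellular matrix, namely Fn1, Postn, Tnc, Thbs1, Lum, Dcn, Bgn, Loxl1 and Igfbp7, were followed across 16 bulk RNA sequencing libraries. They were chosen by name, with earlier results of these data known. Through the symbol of each Ensembl mouse gene, all 10 were found among 32697 genes in the table and among the 16040 genes that passed the filter on low counts. The libraries came from YUMM1.7 tumours, grown from an engrafted mouse melanoma line in female mice to 200 to 350 mm3, and per the labels they hold type 1 conventional dendritic cells (cDC1s) isolated by sorting. There were 4 genotype groups of 4 libraries. The IRF1 set of 8 libraries, numbered 9 to 16 in the titles, held IRF1deltaXCR1 and the floxed controls IRF1FF. The IKKb set, numbered 1 to 8, held IKKbdeltaXCR1 and the floxed controls IKKbFF. Replicate numbers in this text are not in the labels and follow the order of title numbers within each group. Those titles were 1, 2, 4 and 7 for IKKbdeltaXCR1 and 3, 5, 6 and 8 for IKKbFF. They were 13 to 16 for IRF1deltaXCR1 and 9 to 12 for IRF1FF. Irf1 encodes an interferon-inducible transcription factor and Ikbkb the kinase IKK-beta, which activates NF-kB. The deletion names refer to XCR1, the chemokine receptor that marks cDC1s, so cells that never express Xcr1 would keep the targeted gene. The growth and treatment notes name the Ikbkb mice alone, so the group of each IRF1 library rests on its genotype label. The locus and the run of title numbers change together, so a difference between the sets cannot be told apart into locus and set. Whether replicates are separate animals is not said, so p-values here reflect library-to-library spread, which may be technical.

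The matrix outside cells is a mesh of collagens together with glycoproteins that cells attach to, proteoglycans that space and bind the fibrils, and enzymes that crosslink them. In tumours, fibroblasts and pericytes are among the cells that express these genes, and macrophages also make fibronectin and thrombospondin. Dendritic cells are not regarded as a main source. Expression by the tumour cells themselves was not tested here. Several of them, such as tenascin-C and periostin, are low in most adult tissues and are induced in wounds and tumour stroma.

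Promoter sequences are shown for Tnc, Postn and Igfbp7, the 3 members with the largest difference between the sets, and for Sparc, the most abundant member. Each is the 250 bases before a gene start in the RefSeq table for GRCm38.p6, read 5′ to 3′ on the gene's own strand, with capitals marking matches to a searched motif on either strand.
Tnc, chr4:64046937-64047186, minus strand: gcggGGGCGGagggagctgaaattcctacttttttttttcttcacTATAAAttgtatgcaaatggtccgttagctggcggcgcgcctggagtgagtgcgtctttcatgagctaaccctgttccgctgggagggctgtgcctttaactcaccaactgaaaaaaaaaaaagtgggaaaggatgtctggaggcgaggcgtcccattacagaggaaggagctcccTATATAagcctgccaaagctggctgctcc
Postn, chr3:54360857-54361106, plus strand: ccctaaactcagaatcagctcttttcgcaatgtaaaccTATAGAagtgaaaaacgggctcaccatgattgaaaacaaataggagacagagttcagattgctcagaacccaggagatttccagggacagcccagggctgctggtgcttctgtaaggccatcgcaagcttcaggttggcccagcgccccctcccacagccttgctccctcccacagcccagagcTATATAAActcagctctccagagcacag
Igfbp7, chr5:77408046-77408295, minus strand: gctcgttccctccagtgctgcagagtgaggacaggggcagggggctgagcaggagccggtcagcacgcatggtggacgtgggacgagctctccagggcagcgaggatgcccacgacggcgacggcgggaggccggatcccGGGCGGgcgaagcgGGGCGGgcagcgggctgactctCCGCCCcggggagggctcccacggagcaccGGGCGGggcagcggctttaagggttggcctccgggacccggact
Sparc, chr11:55420081-55420330, minus strand: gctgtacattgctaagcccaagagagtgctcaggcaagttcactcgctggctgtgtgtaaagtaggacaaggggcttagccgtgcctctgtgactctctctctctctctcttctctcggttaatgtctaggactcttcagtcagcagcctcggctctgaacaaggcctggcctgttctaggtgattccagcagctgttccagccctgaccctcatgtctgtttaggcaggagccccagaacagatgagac
The table held 7 windows for 5 members, with Bgn as the fifth, and the 8 motifs searched were the TATA-like TATANA, the SP1-like GGGCGG, the AP-1-like TGANTCA, the TEAD-like GGAATG, the CCAAT box, an interferon-response repeat, an NF-kB site and a CArG box. The TATA-like letters TATANA stood at positions -29 to -24 from the Tnc start and, in 2 overlapping copies, at -28 to -21 from the Postn start. Further copies stood at -205 to -200 in the Tnc window shown and at -212 to -207 in that of Postn. TATANA occurs in 22.6% of all 32851 windows. The SP1-like letters GGGCGG had 4 matches in the Igfbp7 window, 3 in the Bgn window and 1 in each of both Tnc windows, which overlap and share that site. GGGCGG is held by 32.7% of windows. No searched motif was present in the Sparc window, which lies inside the GENCODE M21 gene model, and none of the 7 windows held TGANTCA (6.75% of windows), GGAATG (12.6%), CCAAT (33.8%), the interferon-response repeat (2.98%), the NF-kB site (7.25%) or the CArG box (1.47%). A match is a description of letters and not of binding.

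Libraries held 16478671 to 27433818 counts, 18468 to 22900 genes with a count and 0.699% to 3.15% of counts from mitochondrial genes. The targeted gene Ikbkb averaged 37.4 ± 7.25 CPM in IKKbdeltaXCR1, against 64.8 ± 37.4 CPM in IKKbFF (SD, n = 4 each), and 3 of 4 deleted libraries lay below every control. The control libraries had 45.1, 44.5, 121 and 48.6 CPM in replicate order, so their mean was raised by replicate 3. Irf1 averaged 166 ± 90.5 CPM in IRF1deltaXCR1, against 199 ± 61.9 CPM in IRF1FF, and those groups overlapped. Neither passed edgeR's quasi-likelihood test (adjusted p 0.988 and 1). All 10 cDC1 markers were detected, but their summed level varied widely. It ran from 486 to 2773 CPM in the IRF1 set and from 615 to 6348 CPM in the IKKb set, where IKKbdeltaXCR1 replicate 1 (6348 CPM) and IKKbFF replicate 3 (6343 CPM) stood apart. The 10 matrix genes together made up 13002 ± 3600 CPM in the IRF1 set and 6458 ± 1305 CPM in the IKKb set (SD, n = 8 each), and they summed to more than the cDC1 markers in 14 of 16 libraries, all but the same pair.

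CPM, the usual count unit scaled to library size, were computed after TMM, a method that matches libraries on genes assumed stable. For levels between genes, CPM were divided by exon length in kilobases (RPKM), with the exons of all isoforms merged. That length exceeds the longest transcript for some members, such as Bgn (6099 against 2666 bases) and Postn (8702 against 5223 bases). It equals the longest transcript for Lum (2448 bases), so the order of levels below may depend on this choice. Sparc, a collagen-binding glycoprotein also called osteonectin, had the highest level per length in every library, with 1192 ± 276 RPKM in the IRF1 set and 851 ± 156 RPKM in the IKKb set. Bgn, the small proteoglycan biglycan, came next with 451 ± 121 and 224 ± 76.8 RPKM in the same sets. In the IRF1 set Postn followed with 274 ± 115 RPKM. Then came Igfbp7 (145 RPKM), Fn1 (144), Lum (125) and Dcn (104), each neighbouring pair of which differed by less than the larger SD. Loxl1 (74.6 RPKM), Tnc (28.9) and Thbs1 (18) were lowest there, and Tnc and Thbs1 did not differ beyond their SD. In the IKKb set Dcn came after Sparc and Bgn with 81.5 RPKM, followed by Postn (60.8), Lum (46.2), Fn1 (42.3), Igfbp7 (40.2) and Loxl1 (32.0), each within the larger SD of the next. Thbs1 (13.3 RPKM) and Tnc (2.47 RPKM) were again lowest. Tnc lay above Thbs1 in 6 of 8 libraries of the IRF1 set and below it in 8 of 8 of the IKKb set. Sparc made up 35.5% ± 5.80 of the summed CPM of the 10 genes in the IRF1 set and 50.3% ± 4.65 in the IKKb set.

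**Figure D1:**
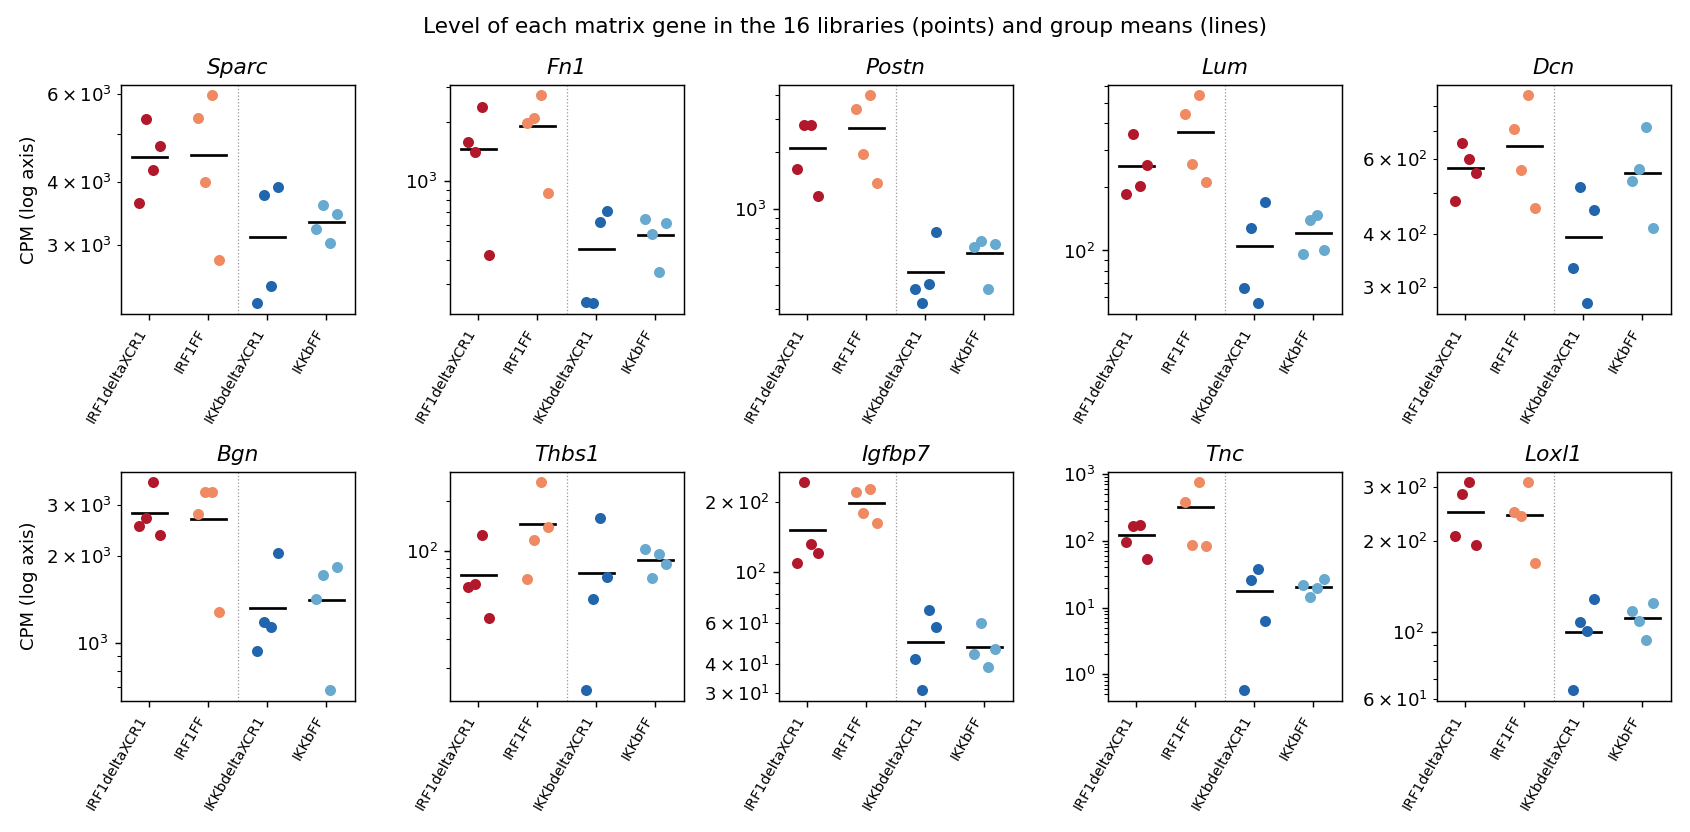
TMM-scaled CPM (log axis) of each matrix gene in the 16 libraries, with a point per library and a line at the mean of each genotype group; the dotted line divides the IRF1 set from the IKKb set. Postn, Lum, Igfbp7, Tnc and Loxl1 lie higher in all 8 libraries of the IRF1 set than in any of the IKKb set, while Thbs1 and Dcn overlap broadly.

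The comparison between the sets asked whether the matrix genes differed between the groups of the IRF1 locus and those of the IKKb locus, with the deleted and control groups of each set weighted equally. Of 10 members, 8 rose in the IRF1 set relative to the IKKb set and none fell, at a Benjamini-Hochberg adjusted p under 0.05 over 16040 genes in edgeR's quasi-likelihood test. The fold was 10.4 for Tnc, 4.5 for Postn, 3.57 for Igfbp7, 3.38 for Fn1, 2.67 for Lum, 2.34 for Loxl1, 2.01 for Bgn and 1.40 for Sparc. Dcn and Thbs1 did not pass. In this comparison 28% of all genes tested were called, 15% higher and 13% lower, so a call in itself is common. The median log2 fold change was 1.32 over the 10 members and 0.01 over all genes. For 5 members no library of the IRF1 set fell within the range of the IKKb set, a pattern that 4.61% of all genes showed in either direction and 2.35% in this one. The members were chosen with earlier results of these data known, so these gaps from all genes are descriptions and no support. In bulk samples fewer cells of a type and less RNA per cell cannot be told apart.

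Fn1 encodes fibronectin, an adhesive glycoprotein that integrins assemble into fibrils. In replicate order its CPM were 1588, 1406, 2379 and 423 in IRF1deltaXCR1 and 1966, 2097, 2725 and 877 in IRF1FF. They were 244, 240.2, 618 and 710.1 in IKKbdeltaXCR1 and 642, 538, 348 and 617 in IKKbFF. In the IRF1 set 7 of 8 libraries exceeded every library of the IKKb set, and IRF1deltaXCR1 replicate 4 lay inside its range. The log2 fold change was 1.76 (SE 0.34, adjusted p 0.00178).

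Among the matricellular proteins, which sit in the matrix and modulate cells rather than build fibrils, Sparc had 3645, 5361, 4234 and 4727 CPM in IRF1deltaXCR1 and 5383, 4010.0, 5962 and 2803 CPM in IRF1FF. It had 2295, 3782, 2486 and 3908 CPM in IKKbdeltaXCR1 and 3230.5, 3610.2, 3023 and 3465 CPM in IKKbFF. The sets overlapped, with 6 of 8 libraries of the IRF1 set above all of the IKKb set, and the log2 fold change was 0.49 (SE 0.16, adjusted p 0.0368). The call for Sparc did not hold without IRF1deltaXCR1 replicate 2, 3 or 4, IRF1FF replicate 1 or 3, IKKbdeltaXCR1 replicate 1 or 3, or IKKbFF replicate 1. Over those 8 fits the log2 fold change was 0.41 to 0.50 and the adjusted p 0.0543 to 0.0822. Leaving out the pair of libraries highest in cDC1 markers gave 0.40 (adjusted p 0.0791).

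Postn encodes periostin, a ligand of integrins that takes part in collagen assembly. Its CPM were 1623, 2785, 2781 and 1182 in IRF1deltaXCR1 and 3388, 1952, 3974 and 1384 in IRF1FF, against 384, 321, 404 and 765 in IKKbdeltaXCR1 and 638, 679, 381 and 658 in IKKbFF. The lowest library of the IRF1 set exceeded the highest of the IKKb set, and the log2 fold change was 2.17 (SE 0.27, adjusted p 0.000205). Tnc, which encodes tenascin-C, an anti-adhesive glycoprotein, varied most. It had 95, 165, 175 and 54.1 CPM in IRF1deltaXCR1 and 378, 87.7, 760.0 and 82.4 CPM in IRF1FF, against 0.578, 26.2, 38.1 and 6.28 CPM in IKKbdeltaXCR1 and 22.1, 14.3, 19.8 and 26.6 CPM in IKKbFF. IRF1FF replicates 1 and 3 were the highest and the sets did not overlap. The log2 fold change of Tnc was 3.38 (SE 0.65, 95% interval 2.0 to 4.77, adjusted p 0.00166).

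Thbs1 encodes thrombospondin-1, which restrains angiogenesis and can activate latent TGF-beta. It had 61.6, 63.7, 125 and 40.1 CPM in IRF1deltaXCR1 and 68.6, 118, 259 and 139.5 CPM in IRF1FF, against 14.8, 52.1, 158 and 70.6 CPM in IKKbdeltaXCR1 and 104, 69.5, 96.1 and 83.5 CPM in IKKbFF. The sets overlapped broadly and 1 library of the IRF1 set, IRF1FF replicate 3, exceeded all of the IKKb set. The log2 fold change of 0.35 (SE 0.38, adjusted p 0.533) had an interval of -0.46 to 1.16, or 0.728-fold to 2.23-fold.

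Lum, Bgn and Dcn encode small leucine-rich proteoglycans, which bind collagen fibrils and limit their width. Lum, for lumican, had 185, 357, 202 and 255 CPM in IRF1deltaXCR1 and 445, 257, 543 and 211 CPM in IRF1FF, against 66.5, 128, 56.1 and 169.7 CPM in IKKbdeltaXCR1 and 96.3, 139.6, 147 and 101 CPM in IKKbFF. No library of the IRF1 set fell within the IKKb set, though IRF1deltaXCR1 replicate 1 was close to its upper end, and the log2 fold change was 1.42 (SE 0.26, adjusted p 0.00127). Bgn had 2549, 2713, 3608 and 2364 CPM in IRF1deltaXCR1 and 2805, 3344, 3329.9 and 1276 CPM in IRF1FF, against 932, 1183, 1134 and 2040.0 CPM in IKKbdeltaXCR1 and 1414, 1719, 684 and 1828 CPM in IKKbFF. IRF1FF replicate 4 alone lay within the range of the IKKb set, and the log2 fold change was 1.01 (SE 0.24, adjusted p 0.00602). Dcn, for decorin, a proteoglycan that also binds TGF-beta, had 478, 654, 599 and 558 CPM in IRF1deltaXCR1 and 707, 566, 848 and 461 CPM in IRF1FF. In the other set it had 333, 515, 275 and 455 CPM in IKKbdeltaXCR1 and 533, 568, 714 and 414 CPM in IKKbFF. Those ranges overlapped, and the log2 fold change of Dcn was 0.37 (SE 0.16, interval 0.03 to 0.72, unadjusted p 0.0362, adjusted p 0.101). Dcn passed without IRF1FF replicate 4 (0.44, adjusted p 0.0475) or IKKbFF replicate 3 (0.45, adjusted p 0.0455), and in limma voom with quality weights (0.44, adjusted p 0.0214). Dcn and Lum are neighbours on the plus strand of chromosome 10 (chr10:97479609-97518143 and chr10:97565128-97572703, mm10, GENCODE M21), with 46984 bases between them.

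Loxl1 encodes a lysyl oxidase that crosslinks elastin. It had 207, 286, 312 and 193 CPM in IRF1deltaXCR1 and 249, 242, 311 and 169 CPM in IRF1FF, against 64.0, 107, 100.2 and 128 CPM in IKKbdeltaXCR1 and 117, 109, 93.8 and 124 CPM in IKKbFF. The sets did not overlap, and Loxl1 had the tightest libraries of the called members in the IRF1 set, with a coefficient of variation of 22%. Its log2 fold change was 1.23 (SE 0.16, adjusted p 0.000244). Igfbp7 encodes a secreted protein that binds insulin-like growth factors and collagen IV and is abundant around blood vessels. It had 109, 245, 132 and 120.3 CPM in IRF1deltaXCR1 and 222, 179, 229 and 164 CPM in IRF1FF, against 42.1, 30.8, 68.3 and 58.0 CPM in IKKbdeltaXCR1 and 44.1, 60.3, 38.7 and 46.3 CPM in IKKbFF. No value of the IRF1 set was as low as the highest of the IKKb set, and the log2 fold change was 1.84 (SE 0.20, adjusted p 0.000137).

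Exon length, with all isoforms merged, moved with this comparison. Across genes split by exon length into 4 equal groups, the median log2 fold change was -0.32, -0.09, 0.12 and 0.44 from the shortest to the longest group, and 3.56%, 8.98%, 16.9% and 30.6% of genes were called higher. Igfbp7 (1209 bases) was in the shortest group, Lum, Loxl1 and Sparc in the second, Dcn, Thbs1 and Bgn in the third, and Tnc, Postn and Fn1 in the longest. With an offset per library that follows exon length, added after this trend was seen, the same number of members, 8 of 10, rose, while 23.1% of all genes were called. The log2 fold changes were then 3.04 for Tnc, 2.20 for Igfbp7, 1.81 for Postn, 1.61 for Lum, 1.31 for Loxl1, 1.20 for Fn1, 0.83 for Bgn, 0.51 for Sparc, 0.23 for Dcn and 0.16 for Thbs1. Exons of genes on the opposite strand overlap those of Fn1 (197 bases with Apol7d), Thbs1 (110 with Gm29233), Tnc (104 with 8030451A03Rik) and Igfbp7 (85 with Polr2b). Each value is the largest overlap of a single pair of exons, and the total over all exons was not computed. It is unknown here whether counting used strand.

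The difference between the sets was then read from the deleted and the control groups apart, which share no library. Both comparisons come from the same fit, whose spread was estimated over all groups. Leaving out a library outside a comparison can therefore still move its adjusted p. In IRF1deltaXCR1 over IKKbdeltaXCR1, 5 of 10 members rose (8.58% of all genes called, 5.04% higher), namely Postn (log2 fold change 2.16, SE 0.38), Fn1 (1.68, SE 0.48), Igfbp7 (1.61, SE 0.28), Loxl1 (1.32, SE 0.23) and Lum (1.25, SE 0.37). In IRF1FF over IKKbFF, 6 of 10 rose (12.6% of all genes called, 6.74% higher), the same 5 and Tnc. There the log2 fold changes were 3.98 (SE 0.95) for Tnc, 2.18 (SE 0.38) for Postn, 2.07 (SE 0.29) for Igfbp7, 1.84 (SE 0.49) for Fn1, 1.59 (SE 0.37) for Lum and 1.13 (SE 0.23) for Loxl1. Tnc in the deleted groups stood at 2.78 (SE 0.90, adjusted p 0.0664). It passed in 3 of 9 alternative fits, among them DESeq2 (2.76, adjusted p 0.0209), and in 0 of 16 fits that left out a library. Bgn had 1.09 (adjusted p 0.0595) in the deleted and 0.93 (adjusted p 0.0832) in the control groups. In the deleted groups it passed in 4 of 9 alternative and 3 of 16 left-out fits, in the control groups in 2 of 9 and 1 of 16. DESeq2 was among those alternatives in both. It called more of all genes than edgeR, 2490 against 1376 in the deleted and 3171 against 2018 in the control groups. The groups did not overlap for 6 of 10 members in each comparison, always higher in the IRF1 set, against 17.9% of all genes (9.02% higher) in the deleted and 17.5% (10.3% higher) in the control groups. Postn, Igfbp7 and Loxl1 passed in both comparisons under every left-out library, whereas Fn1 and Lum in the deleted groups were close to the threshold. There each lost the call in 12 of 16 fits that left out a library, with log2 fold changes of 1.33 to 1.88 (adjusted p 0.0520 to 0.166) for Fn1 and 1.03 to 1.37 (adjusted p 0.0527 to 0.139) for Lum. Both kept it without IRF1FF replicate 4, IKKbdeltaXCR1 replicate 4 or IKKbFF replicate 3, Fn1 also without IRF1deltaXCR1 replicate 4 and Lum also without IRF1FF replicate 3. With the offset for exon length Fn1 did not pass in the deleted (1.17, adjusted p 0.111) or the control groups (1.22, adjusted p 0.0917). In the control groups Fn1 lost it without IRF1FF replicate 1, 2 or 3 or IKKbFF replicate 2 or 3 (1.62 to 1.83, adjusted p 0.0512 to 0.0773), Lum without IRF1FF replicate 3 (1.33, adjusted p 0.0552), and Tnc without IRF1FF replicate 3 (3.15, adjusted p 0.0566) or IKKbFF replicate 2 (3.83, adjusted p 0.0503).

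**Figure D2:**
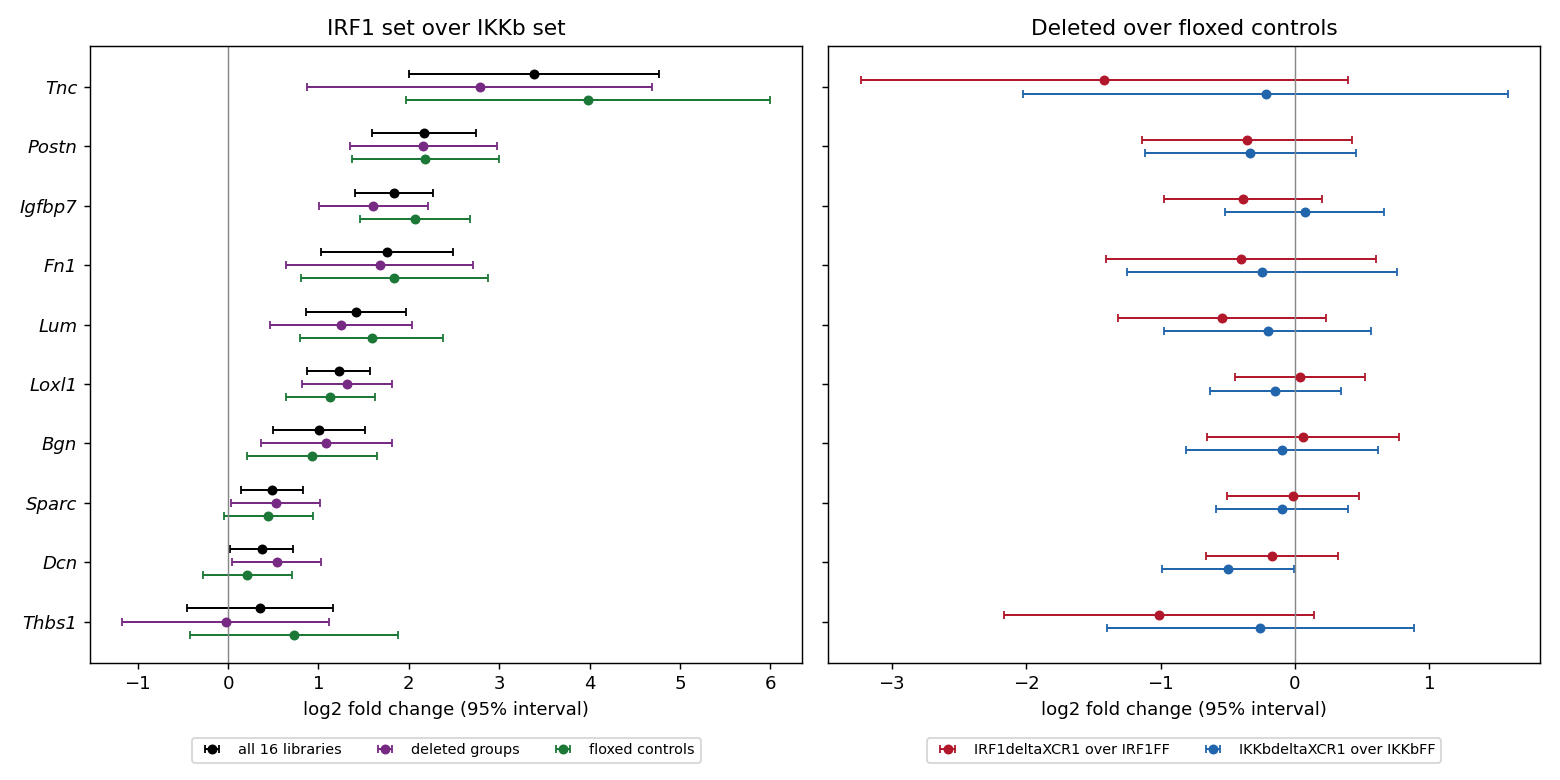
Log2 fold changes from edgeR, with 95% intervals computed from its F statistic. Comparisons between the sets are at the left (all 16 libraries, deleted groups, floxed controls) and those of each deletion over its floxed controls at the right. Tnc (3.38) and Postn (2.17) lie farthest from 0 between the sets, and the intervals of the deletions cover 0 for every member but Dcn in IKKbdeltaXCR1 over IKKbFF (-0.99 to -0.01).

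Neither deletion changed a member past the threshold. In IRF1deltaXCR1 over IRF1FF, 0 of 10 members and 0% of all genes were called. DESeq2 called 6 genes and no member there, and 419 genes but no member had an unadjusted p under 0.05. In IKKbdeltaXCR1 over IKKbFF, 0 of 10 members and 0% of all genes were called, DESeq2 called 38 genes and no member, and 769 genes and 1 member had an unadjusted p under 0.05. That member was Dcn, with 394 ± 110 CPM in IKKbdeltaXCR1 and 557 ± 123 CPM in IKKbFF (SD, n = 4 each; log2 fold change -0.50, SE 0.23, unadjusted p 0.0474, adjusted p 1). No member's groups were free of overlap in either deletion, against 2.89% of all genes for IRF1deltaXCR1 and 1.7% for IKKbdeltaXCR1.

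The intervals give what these libraries could still hold. For Sparc the log2 fold change was -0.02 (interval -0.51 to 0.48) in IRF1deltaXCR1 over IRF1FF and -0.10 (-0.59 to 0.39) in IKKbdeltaXCR1 over IKKbFF. Intervals were widest for Tnc, with -1.42 (-3.23 to 0.39) and -0.22 (-2.02 to 1.59) in the same comparisons, and for Thbs1, with -1.01 (-2.16 to 0.14) and -0.26 (-1.40 to 0.89). Estimates were negative for 8 of 10 members in IRF1deltaXCR1 over IRF1FF, with a median of -0.37, and for 9 of 10 in IKKbdeltaXCR1 over IKKbFF, with a median of -0.21. The medians of all genes were -0.02 in both. Members share their libraries, so these counts are not independent of each other. The difference between the deletions, tested as an interaction, called 0 of 10 members and 0% of all genes, while 455 genes and no member had an unadjusted p under 0.05 and DESeq2 called 12 genes.

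Ratios within a library do not depend on its scaling. They do keep the trend with exon length where the genes differ in length, as Postn (8702 bases) and Sparc (3788 bases) do. Postn had 519 ± 138 CPM per 1000 CPM of Sparc in the IRF1 set and 164 ± 39.8 in the IKKb set (SD, n = 8 each), and Loxl1 had 55.5 ± 9.95 and 32.8 ± 4.31 in the same sets. Neither ratio overlapped between the sets. For Dcn the ratio to Sparc overlapped between the sets, at 136 ± 14.5 per 1000 in the IRF1 set and 148 ± 40.5 in the IKKb set. Lum, the neighbour of Dcn, had 489 ± 109 CPM per 1000 CPM of Dcn in the IRF1 set and 238 ± 60.2 in the IKKb set, with overlap. Between the 2 matricellular genes with the lowest levels, Tnc per 1000 CPM of Thbs1 was 591 to 5513 in the IRF1 set and 39.0 to 502 in the IKKb set. No test was made of these ratios, which reuse the libraries of the comparison between the sets.

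**Figure D3:**
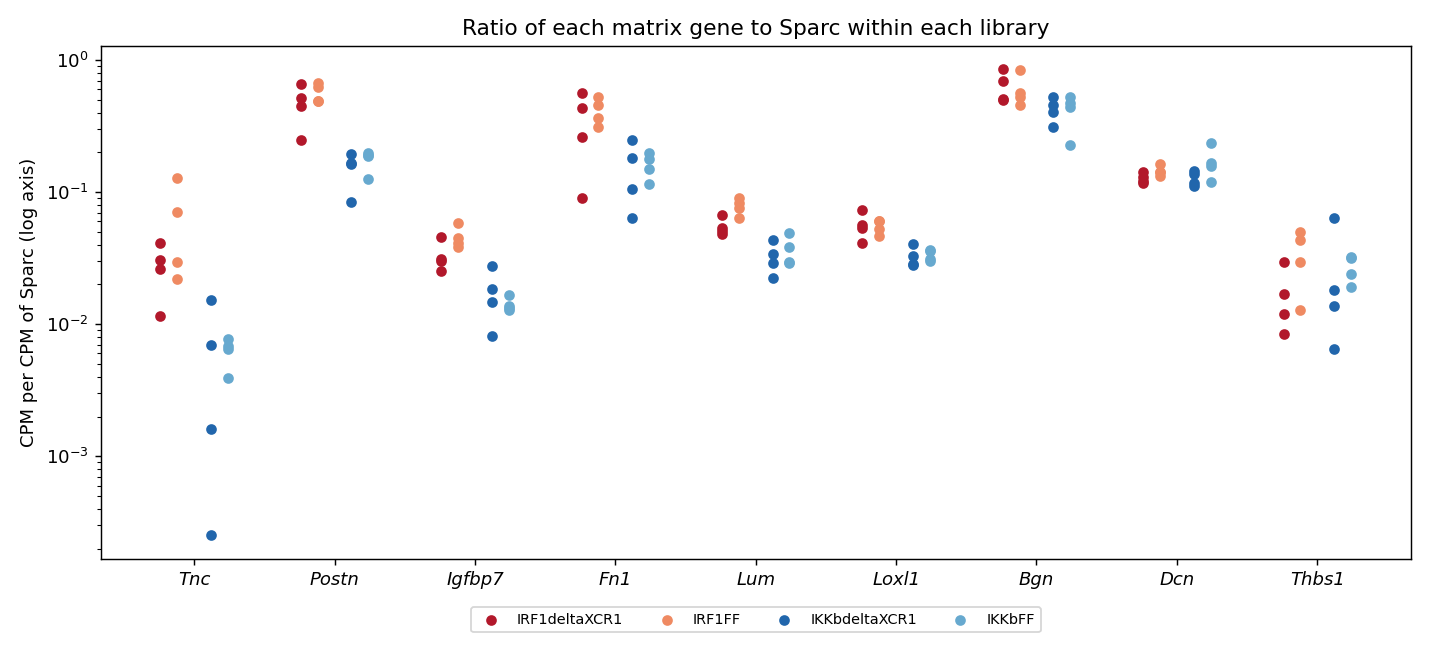
CPM of each matrix gene per CPM of Sparc in the same library (log axis), with a point per library and the 4 genotype groups side by side. The ratios of Postn and Loxl1 are higher in all 8 libraries of the IRF1 set than in any of the IKKb set, and those of Dcn and Thbs1 overlap between the sets.

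Between the sets, 15% of all genes tested were called higher and 13% lower. The lists below were likewise chosen with earlier results of these data known. Of 48 tested genes for other matrix glycoproteins, 29 rose and 2 fell, with a median log2 fold change of 1.35. Those with the smallest p were Sparcl1, a relative of Sparc (825 ± 367 CPM in the IRF1 set and 99.6 ± 41.7 CPM in the IKKb set; 3.08, SE 0.35), Mfap2, Eln (elastin) and Fbn1 (fibrillin-1). The 2 that fell were Igfbp6 (-0.69, SE 0.14) and Ccn1 (-0.51, SE 0.15). Of 14 tested genes for other proteoglycans, 5 rose and 1 fell, with a median of 0.44. Vcan, for the large proteoglycan versican, had 211 ± 60.2 CPM in the IRF1 set and 55.0 ± 24.9 CPM in the IKKb set, whereas Srgn, for serglycin of blood cell granules, had 139 ± 55.9 and 363 ± 281 CPM in the same sets.

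Against the same shares, 15% higher and 13% lower, 13 of 18 crosslinking and assembly enzymes rose and none fell, with a median of 0.99. Bmp1, a protease that trims procollagens, was among them with 259.5 ± 90.8 CPM in the IRF1 set and 66.1 ± 23.1 CPM in the IKKb set (2.0, SE 0.21). P3h1, Plod3 and Loxl3, which modify or crosslink collagen, also rose. Of 24 matrix receptors, 9 rose and none fell, with a median of 0.47, among them the collagen receptors Itga1 (1.64, SE 0.19) and Ddr1 (1.20, SE 0.20), the scavenger receptor Lrp1 (1.72, SE 0.31) and the integrin subunit Itgb5 (1.08, SE 0.22). With the offset for exon length 23.1% of all genes were called, 11.4% higher. The counts were then 28 higher and 0 lower for glycoproteins, 4 and 1 for proteoglycans, 12 and 0 for enzymes, and 7 and 2 for receptors. No gene of these 4 lists was called in either deletion.

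In the same comparison 15% of all genes were called higher and 13% lower. Among cell type markers, 7 of 12 fibroblast markers rose and none fell. Their summed level was 8644 to 26863 CPM in the IRF1 set and 3955 to 8293 CPM in the IKKb set, and none was at 0 in a set. Col3a1 had 7210 ± 3318 CPM in the IRF1 set and 2174 ± 573 CPM in the IKKb set (1.72, SE 0.25), and Col6a3, Col5a1 and Pdgfrb also rose. Of 11 endothelial markers, 5 rose and none fell, with summed levels of 100.1 to 243 CPM in the IRF1 set and 25.5 to 117 CPM in the IKKb set. Of 10 pericyte and smooth muscle markers, 4 rose (Mcam, Cspg4, Myh11 and Rgs5) and 1 fell (Des), with summed levels of 321 to 725 CPM in the IRF1 set and 256 to 732 CPM in the IKKb set. With the offset for exon length 23.1% of all genes were called, 11.4% higher. The counts were then 7 higher and 0 lower for fibroblast, 3 and 0 for endothelial, and 3 and 0 for pericyte and smooth muscle markers. The part of these cells in the members' difference was not tested.

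Markers of other cells are given beside it. With 15% of all genes called higher and 13% lower, a single call in a short list is no result about its cells. None of 10 cDC1 markers was called, and their median log2 fold change was -0.85. Of 12 macrophage and monocyte markers 1 rose (Arg1), with sums of 518 to 4483 CPM in the IRF1 set and 699 to 2849 CPM in the IKKb set. Of 10 T and NK cell markers 1 fell (Cd3d), with sums of 39.7 to 432 CPM in the IRF1 set and 111 to 1136 CPM in the IKKb set. All 5 tested skeletal muscle markers fell, with sums of 3.72 to 8.05 CPM in the IRF1 set and 21.7 to 722 CPM in the IKKb set, the reverse of the members. Of 9 melanocyte markers matched, 3 passed the filter and 1 rose (Mitf), with sums of 6.0 to 16.9 CPM in the IRF1 set and 2.55 to 11.6 CPM in the IKKb set. Mlana, Tyr, Tyrp1, Dct and Slc45a2 were at 0 in all 8 libraries of the IRF1 set. How far YUMM1.7 cells express these markers was not tested, so their levels do not tell whether tumour cells were present. Of 5 keratinocyte markers tested 1 rose (Krt5), with sums of 2.30 to 785 CPM in the IRF1 set and 4.41 to 9.03 CPM in the IKKb set. The 1 adipocyte marker tested was not called, and the list summed to at most 2.30 CPM in any library. With the offset for exon length 23.1% of all genes were called, 11.4% higher. No melanocyte and no T and NK cell marker was called there, so Mitf and Cd3d did not pass. In that fit 1 macrophage and monocyte marker rose and 1 fell. The counts of the cDC1, skeletal muscle, keratinocyte and adipocyte lists were as without the offset. The part of all these cells in the members' difference was not tested.

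**Figure D4:**
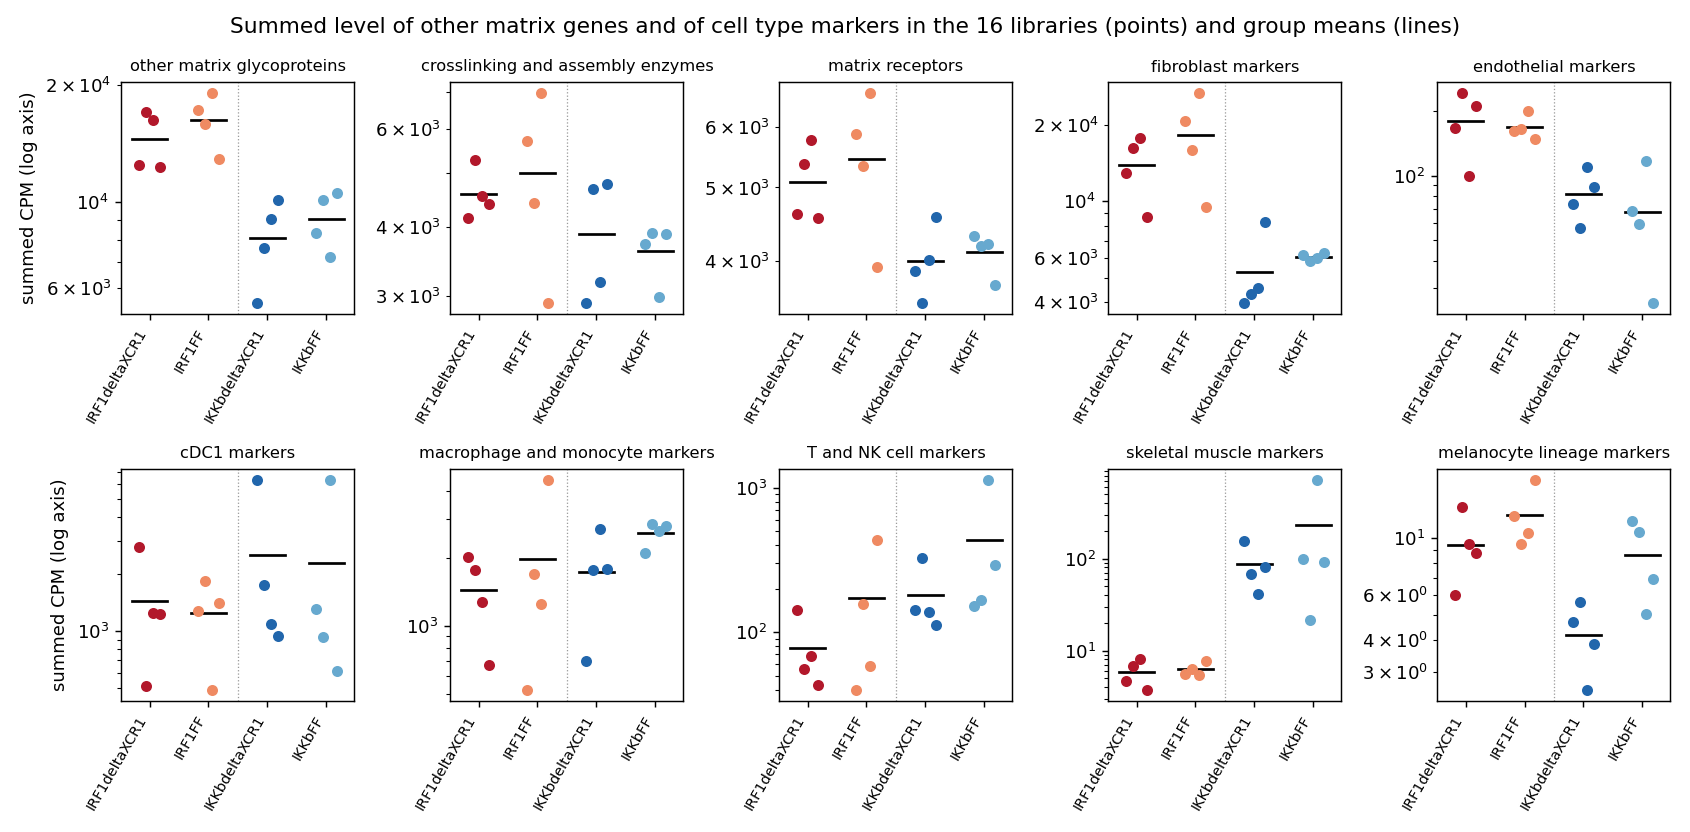
Summed TMM-scaled CPM (log axis) of other matrix gene lists and of cell type marker lists, with a point per library and a line at each group mean. Sums of other matrix glycoproteins lie at 12277 CPM or more in the IRF1 set and at 10535 CPM or less in the IKKb set, sums of fibroblast markers do not overlap between the sets either, and cDC1 sums are highest in 1 library each of IKKbdeltaXCR1 and IKKbFF.

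After subtracting from each log2 CPM the mean of its own set, the Pearson correlation over the 16 libraries served as the measure of likeness, with 9466 genes compared and no test. The 16 values share libraries and their cell mixture. Sparc was most like Serpinf1 (0.91), Vegfd (0.90), Pcolce (0.89), Igfbp4 (0.89) and Etv4 (0.88). Fn1 was most like Col6a3 (0.94) and Col4a1 (0.93), Postn like Mmp2 (0.94) and Colec12 (0.93), and Loxl1 like Mrc2 (0.92) and Fermt2 (0.90). Lum was most like Pcolce (0.85) and Prss23 (0.83), Dcn like Cilp (0.91) and Rras (0.85), and Bgn like Cyth3 (0.94) and Extl2 (0.91). Thbs1 was most like Dst (0.86) and Cebpb (0.85), Igfbp7 like Cygb (0.82) and Fndc3a (0.80), and Tnc like Amotl1 (0.89) and Atg10 (0.86).

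Between members the same measure had a median of 0.48 over 45 pairs. It was highest for Lum with Dcn (0.84), Sparc with Lum (0.83) and Fn1 with Postn (0.82), and lowest for Dcn with Igfbp7 (0.06). Sparc was closer to the proteoglycans Lum and Dcn (0.70) and to Loxl1 (0.75) than to Fn1 (0.29) or Thbs1 (0.12), though no difference between these values was tested.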

How the data were processed

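Per the labels' protocols, cDNA was made with SMART-Seq v4 from 1000 pg of RNA with 12 PCR cycles and libraries with Nextera XT. The authors deposited raw read counts per Ensembl gene. Named in the submitters' processing notes are HTSeq 0.6.1p1, STAR 2.5.3a, cutadapt 1.10 and bcl2fastq 2.17.1.14, for build mm10. Neither the strand setting nor the annotation release is given in the sources used here. Symbols came from GENCODE M21 (32684 of 32697 IDs matched) and promoters from RefSeq.

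Counts were tested with edgeR 4.0.16 (R 4.3.3) in one quasi-likelihood fit of all 16 libraries, with TMM scaling, a mean per group, and filterByExpr at a minimum count of 10. The 6 contrasts were 2 deletions, their difference, the sets, and the deleted and the control groups of the sets. The threshold was a Benjamini-Hochberg adjusted p under 0.05. Alternatives used other scalings and filters, DESeq2 1.42.0, limma 3.58.1 voom, the compared groups alone, each library left out, and, added after seeing the data, an exon-length offset and the pair of libraries highest in cDC1 markers left out. The code was tested on simulated data. No molecular identifiers were counted, so reads are not independent molecules. Members were named in full; list genes were those with the smallest p among called genes, and likeness used the highest correlations. Members and lists were chosen with earlier results of these data known.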

Additional observations from a re-analysis of the deposited data

Results flagged for a closer look

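In 40 sets of 4 libraries (10 matrix genes in 4 genotype groups), 1 library was set apart from its group in 2 cases, where chance alone flags about 1 in 20. Postn in IKKbFF replicate 3 had 381 CPM, with the other libraries of that group at 638 to 679 CPM, and the gap was 0.863 of the group's range, above the 95% critical value of Dixon's test. That library also had a cDC1 marker sum of 6343 CPM. Igfbp7 in IRF1deltaXCR1 replicate 2 had 245 CPM, with the others at 109 to 132 CPM, and the gap was 0.830 of the range.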

How the results depend on the processing

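No paired analysis was possible because the labels give no replicate numbers. Leaving out each library gave 3506 to 4809 genes and 7 to 9 of 10 matrix genes called between the sets, 782 to 2404 genes and 3 to 7 matrix genes between the control groups, and 110 (without IRF1deltaXCR1 replicate 3) to 1776 genes and 3 to 6 matrix genes between the deleted groups. The deletions called 0 to 1 gene for IKKb and 0 to 0 for IRF1, and their difference 0 to 1, with 0 matrix genes in each. DESeq2 called 38 genes for the IKKb deletion, 6 for the IRF1 deletion and 12 for their difference. Between the control groups the count was 1199 with no filter, 3171 with DESeq2, 4130 with voom, 1069 with the compared groups alone and 1277 with the length offset, against 2018 in the edgeR fit. Between the deleted groups it was 718 with no filter, 2490 with DESeq2 and 2990 with voom, against 1376 in the edgeR fit. There 3 matrix genes, against 5 in the edgeR fit, were called with no filter or without the pair of libraries highest in cDC1 markers. Without that pair 1675 of 16521 genes were called, so matrix genes lost calls while the count of all genes rose. Fn1 (1.47, adjusted p 0.0838) and Lum (1.09, adjusted p 0.0888) did not pass in that fit. Signs turned only for values that passed no threshold. Without that pair, the IKKb deletion gave 0.066 for Lum, 0.14 for Thbs1 and 0.17 for Tnc and the difference 0.057 for Postn; with voom it gave -0.12 for Igfbp7, the IRF1 deletion -0.019 for Bgn, the deleted groups 0.41 for Thbs1, and the difference -0.066 for Sparc, 0.085 for Fn1 and 0.12 for Postn; with the length offset, -0.011 for Loxl1 in the IRF1 deletion and 0.11 for Postn in the difference. With single libraries left out, log2 fold changes crossed 0 in the IKKb deletion for Bgn (-0.39 to 0.055), Igfbp7 (-0.14 to 0.24), Loxl1 (-0.30 to 0.013), Sparc (-0.23 to 0.021), Thbs1 (-0.96 to 0.090) and Tnc (-0.93 to 0.19), in the IRF1 deletion for Bgn (-0.17 to 0.19), Loxl1 (-0.10 to 0.18) and Sparc (-0.19 to 0.14), between the deleted groups for Thbs1 (-0.42 to 0.68), and in the difference for Bgn (-0.076 to 0.45), Fn1 (-0.51 to 0.15), Lum (-0.56 to 0.0052), Postn (-0.24 to 0.33) and Sparc (-0.093 to 0.24). Causes were not tested. The median of all genes between the sets was 0.01, against 0.11 with voom and 0.12 without the high-cDC1 pair, and the matrix gene changes there are relative to that shift. Values of the other gene lists with libraries left out are not reported here. With 4 libraries a group, intervals of Tnc and Thbs1 stay wide, so changes of that size were not detectable.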
